A study of Mus musculus with 6 samples.

Results

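Transcripts of 5 genes for germline RNA-binding proteins, Dazl, Nanos2, Nanos3, Lin28a and Dnd1, were followed in cultured mouse Sertoli cells, which surround and nourish developing germ cells in the testis. The genes were taken by name, and all 5 were found among 49203 named genes in the transcript tables. The libraries are of total RNA from Sertoli cell lines, 3 from lines positive for a GFP reporter carried by the Y chromosome (GFP-positive 2, 4 and 7) and 3 from lines negative for it (GFP-negative 9, 11 and M). The labels give the 2 phenotypes as green and non-green cells. The sources used here do not give strain, age or treatment. They also do not say whether replicates are separate lines, cultures or animals, and p-values therefore reflect only how far these libraries scatter, part of which may be technical. The question put to the data is whether lines with and without expression of the Y-linked reporter differ in these genes.

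These proteins act on messenger RNA after transcription and are known from primordial germ cells and spermatogonia rather than from Sertoli cells. DAZL binds 3' ends of mRNAs and promotes their translation, and it is needed for germ cells to become competent for meiosis. NANOS2 and NANOS3 bring the CCR4-NOT deadenylase to mRNAs and so repress them, NANOS3 in migrating primordial germ cells and NANOS2 in fetal male germ cells and spermatogonial stem cells. DND1 is a partner of NANOS2 on its targets, and its loss in the mouse leads to loss of germ cells and testicular teratoma. LIN28A blocks maturation of the let-7 microRNAs and is present in undifferentiated spermatogonia.

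Promoter windows of 300 bases (250 before to 50 after the annotated start) were found for 4 of the 5 genes in RefSeq (GRCm38.p6, a build that differs from the mm39 of the tables). They are shown because all 5 genes averaged higher in the GFP-positive libraries while the promoters differ in CpG content, and the 2 ends of that range are printed, 5' to 3' on the strand of the gene. In the Dazl window (chr17:50293571-50293870, minus strand) capitals mark the CG dinucleotides. In the Nanos2 window (chr7:18987274-18987573, plus strand), which holds none, capitals mark a match to TATAAA on the opposite strand.
Dazl: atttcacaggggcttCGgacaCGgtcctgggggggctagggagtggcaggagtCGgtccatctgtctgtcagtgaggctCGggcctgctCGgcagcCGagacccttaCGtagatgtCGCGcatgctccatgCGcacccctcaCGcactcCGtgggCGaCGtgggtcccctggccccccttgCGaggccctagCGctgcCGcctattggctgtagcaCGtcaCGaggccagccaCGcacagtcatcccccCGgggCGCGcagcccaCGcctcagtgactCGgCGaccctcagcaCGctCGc
Nanos2: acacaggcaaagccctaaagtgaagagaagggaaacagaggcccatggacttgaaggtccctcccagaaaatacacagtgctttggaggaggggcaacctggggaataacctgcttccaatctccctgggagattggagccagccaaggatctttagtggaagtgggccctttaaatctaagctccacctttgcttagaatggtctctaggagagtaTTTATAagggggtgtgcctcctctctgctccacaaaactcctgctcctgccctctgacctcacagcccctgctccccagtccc
The Dazl window held 28 CG dinucleotides, the Lin28a window 10, the Nanos3 window 3 and the Nanos2 window 0. Over 32851 windows the median was 7, and 14.2% held at least as many as Dazl, against 43.5% for Lin28a and 76.7% for Nanos3. The E-box CACGTG, searched on both strands and present in 7.15% of all windows, was in none of the 4, and neither was GGCGGGA, present in 11.3%. TATAAA, present in 13.6% of all windows, was in the Nanos2 window alone among the 4, with 27 bases between it and the RefSeq start. The Nanos2 transcript of the tables starts further upstream, at position 127 of the window, so the match, at position 218, lies inside that transcript. The CG count of the Nanos2 window therefore also covers transcribed bases, from position 127 on. The GC box GGGCGG, present in 35.7%, was in the windows of Lin28a and Nanos3. In Nanos3 it was at position 35, before the start. In Lin28a it was at position 283, past the RefSeq start and inside the main transcript, which starts at position 226. A match is a run of letters and not a bound site.

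**Figure D1:**
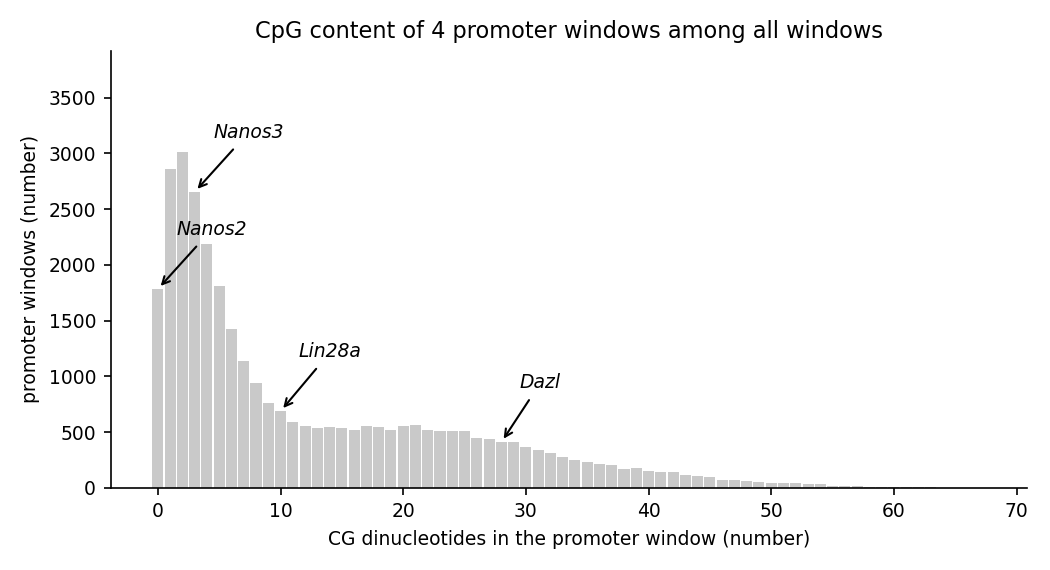
Number of CG dinucleotides (horizontal axis) in 32851 RefSeq promoter windows of 300 bases, as the number of windows at each value (vertical axis). Arrows mark Nanos2 (0), Nanos3 (3), Lin28a (10) and Dazl (28), which lie on both sides of the median of 7.

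Levels are FPKM (sequenced fragments relative to transcript length and library size), summed over the named transcripts of a gene and scaled between libraries, so that they can be compared between genes per length. The libraries held 11.2, 11.8 and 11.3 Gb of aligned bases in GFP-positive 2, 4 and 7, against 10.02, 9.67 and 8.25 Gb in GFP-negative 9, 11 and M. The main axis of variation (57.9% of the variance in a principal component analysis) placed the GFP-positive libraries at -72.8 to -56.8, GFP-negative 9 at 21.6 and GFP-negative M and 11 at 77.4 and 98.8. Of 27 Sertoli markers, 24 averaged 0.5 FPKM or more in each group, with Clu, Cldn11 and Inha at 1885, 272.3 and 259.4 FPKM in GFP-positive and 1853, 261.4 and 204.0 FPKM in GFP-negative libraries (chosen after their values were seen). Markers of the labelled cell type were thus present in both groups. Of the list 24 were tested, 1 rose and 6 fell, beside 11.3% higher and 9.2% lower over all features. The falls were Sox9, Gdnf, Tjp1, Inhba, Vim and Gata4. Inhba averaged 2.32 FPKM in GFP-positive and 13.9 FPKM in GFP-negative libraries, and Gata4 1.72 and 7.78 FPKM. With 1 library left out the falls numbered 0 to 4 and the rises 0 to 3, both 0 without GFP-positive 7 and without GFP-negative M. Dmrt1, a transcription factor gene of Sertoli and germ cells, was the rise, at 58.2 against 26.5 FPKM (log2 difference 1.12, adjusted p = 0.0186), which was not called with an equal sum of FPKM or after quantile normalization. Sox9, a transcription factor of Sertoli cell identity, was lower in GFP-positive libraries, at 11.7 against 43.8 FPKM (log2 difference -1.89, adjusted p = 0.0132). Neither gene passed when GFP-positive 7 or GFP-negative M was left out.

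All 5 genes averaged more in the GFP-positive than in the GFP-negative libraries, and for 4 of them, all but Nanos3, every GFP-positive library was above every GFP-negative one. Such a separation was seen with GFP-positive higher in 21.5% and with GFP-positive lower in 21.9% of all features tested. Dazl, Dnd1 and Lin28a rose, Nanos3 did not pass, and Nanos2 was too low to be tested with the rest. Over all features tested, 11.3% were called higher (adjusted p under 0.05 in limma) and 9.2% lower, 20.5% in all. With 1 library left out the share called higher was 7.09% (GFP-positive 2), 5.38% (GFP-positive 4), 0.122% (GFP-positive 7), 15.5% (GFP-negative 9), 4.94% (GFP-negative 11) and 0.148% (GFP-negative M). It was 9.78% without scaling, 2.93% with libraries brought to 1 equal sum of FPKM, 9.21% after quantile normalization, 26% with library weights, 16.2% with unnamed isoforms added and 3.31% with the length trend removed. Of the features called, 55.1% were higher, against 6.91% with an equal sum and 42.7% with the length trend removed. A feature was tested when its mean over the 6 libraries was at least 0.5 FPKM. In the GFP-positive libraries all 5 genes averaged at least that much and in the GFP-negative libraries 0 of 5 did, so the 4 that were tested passed only through the group in which they are high, and their number is not evidence by itself. With no such filter, when 37868 features were tested and 1.73% were called higher, Dnd1 passed (adjusted p = 0.0412) and Dazl (0.0873), Lin28a (0.116), Nanos2 (0.168) and Nanos3 (0.261) did not. Fewer cells that express a gene and less RNA per cell cannot be told apart in these bulk libraries.

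**Figure D2:**
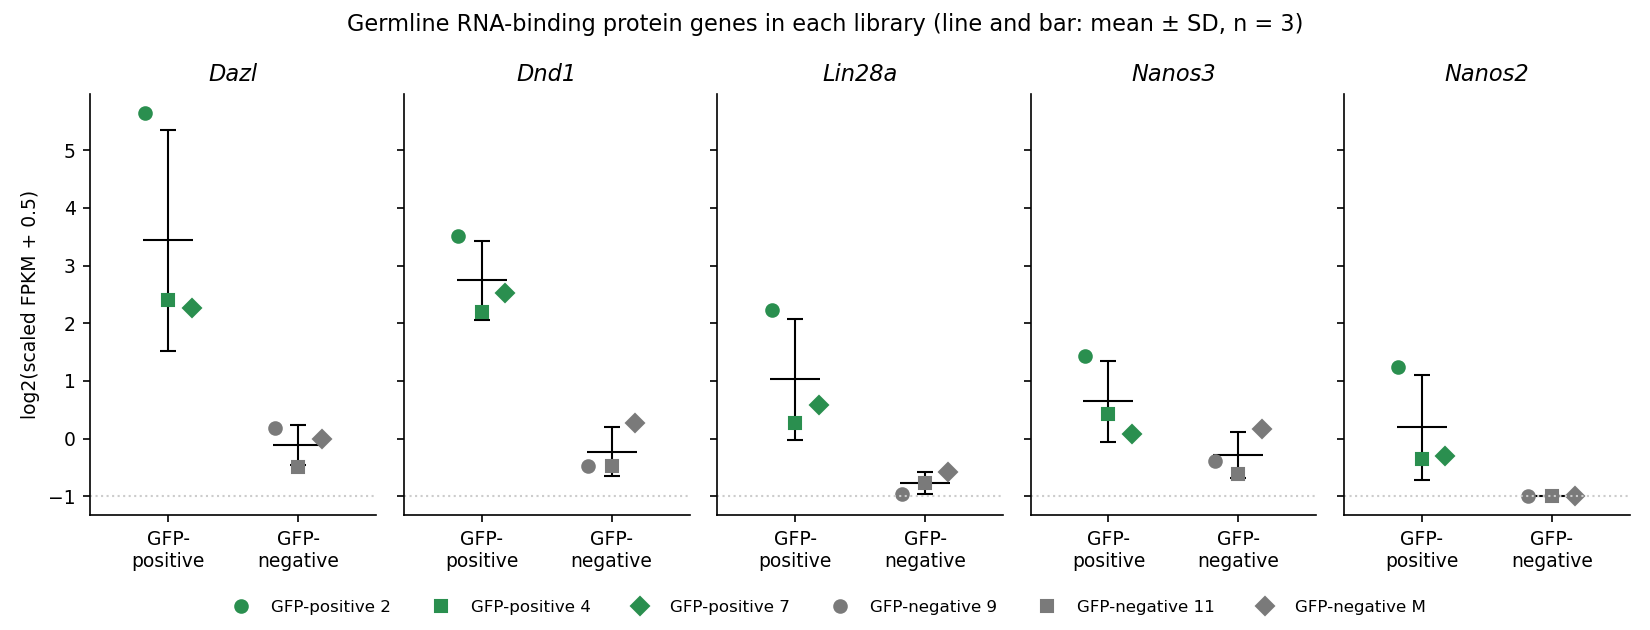
Level of each gene as log2(scaled FPKM + 0.5) (vertical axis) in the GFP-positive (green, left) and GFP-negative (grey, right) libraries, with 1 symbol per library and the mean ± SD over 3 libraries in black; the dotted line at -1 is a level of 0. GFP-positive 2 is the highest library for each of the 5 genes, and the groups overlap for Nanos3.

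Dazl was the most abundant of the 5 in the GFP-positive libraries on average. Its named transcripts (chromosome 17, 50586423 to 50600664, minus strand, mm39) summed to 49.8, 4.78 and 4.28 FPKM in GFP-positive 2, 4 and 7, against 0.629, 0.211 and 0.491 FPKM in GFP-negative 9, 11 and M. GFP-positive 2 stood 10.4-fold above the next library, and the lowest GFP-positive library was 6.80-fold above the highest GFP-negative one. The means were 19.6 ± 26.1 FPKM in GFP-positive and 0.444 ± 0.213 FPKM in GFP-negative libraries (SD, n = 3 each). The log2 difference was 3.55 (SE 0.83, adjusted p = 0.0258, higher in 3 of 3 GFP-positive libraries). Without GFP-positive 2 it was 2.44 (adjusted p = 0.0209), whereas the call was lost without GFP-positive 7 (4.14, adjusted p = 0.0663), GFP-negative 11 (3.35, 0.0704) or GFP-negative M (3.59, 0.0910). These 3 fits called 28, 1457 and 33 features in all, against 3872 with all libraries.

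Much of the Dazl signal lay on a transcript without a gene name. StringTie assembled at the locus a model of 10 exons and 3354 nt (50585996 to 50600664) beside the main annotated transcript of 11 exons and 2976 nt, with the same 5' end and a longer 3' end. The unnamed model had 14.7, 2.83 and 11.4 FPKM as deposited in GFP-positive 2, 4 and 7, against 0.0452, 0.0211 and 0.191 FPKM in GFP-negative 9, 11 and M. The 11-exon transcript had 48.8, 3.60 and 1.66 FPKM in the GFP-positive libraries, against 0.618, 0.0159 and 0.417 FPKM in the GFP-negative ones. The unnamed model thus held 73.2% of the FPKM of the locus in GFP-positive 7 and 21.0% in GFP-positive 2, and the 11-exon transcript 10.7% in GFP-positive 7 and 69.9% in GFP-positive 2. GFP-positive 4 lay between them, with 39.6% on the unnamed model and 50.4% on the 11-exon transcript. In GFP-negative 11, where the locus was lowest, a 7-exon annotated transcript held 76.0%. Tested as a feature of its own, the unnamed model rose by a log2 difference of 3.88 (SE 0.50, adjusted p = 0.0105).

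With the unnamed model added, the order of the GFP-positive libraries changed. Dazl then had 63.2, 7.96 and 16.05 scaled FPKM in GFP-positive 2, 4 and 7, against 0.667, 0.235 and 0.673 in GFP-negative 9, 11 and M. GFP-positive 7 was above GFP-positive 4, while for the named transcripts alone they were at 4.28 and 4.78. The log2 difference became 4.37 (SE 0.64, adjusted p = 0.00696). How StringTie divided reads between models that share most of their sequence cannot be checked from the tables.

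**Figure D3:**
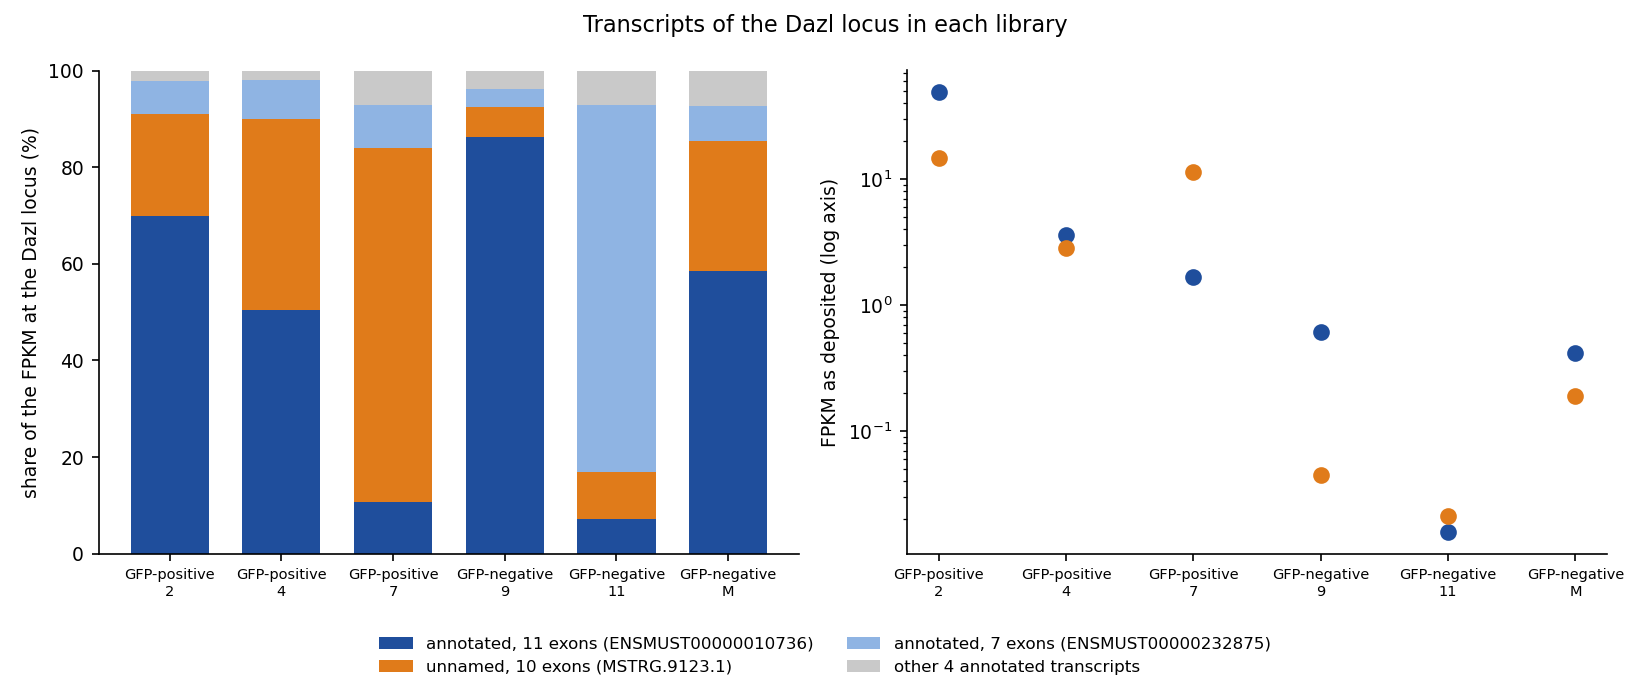
Left, share of the deposited FPKM at the Dazl locus (vertical axis, %) held by each transcript model in each library; right, FPKM of the 11-exon annotated (blue) and the 10-exon unnamed (orange) model on a log axis. The unnamed model holds 73.2% in GFP-positive 7 and 21.0% in GFP-positive 2, and it is above 2 FPKM in each GFP-positive library and below 0.2 FPKM in each GFP-negative one.

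Dnd1 had the largest difference relative to its standard error among the 4 tested genes. Its level was 10.9, 4.06 and 5.27 FPKM in GFP-positive 2, 4 and 7, against 0.216, 0.223 and 0.709 FPKM in GFP-negative 9, 11 and M. The lowest GFP-positive library was 5.73-fold above the highest GFP-negative one. Means were 6.73 ± 3.63 FPKM in GFP-positive and 0.382 ± 0.283 FPKM in GFP-negative libraries, a log2 difference of 2.97 (SE 0.41, adjusted p = 0.0111). The gene (chromosome 18, 36896724 to 36899267, minus strand) has 3 transcripts in the tables, and the 4-exon one of 1467 nt carried most of the signal, at 8.82, 2.93 and 4.78 FPKM as deposited in GFP-positive 2, 4 and 7. In the GFP-negative libraries that transcript was listed at 0 in 9 and 11 and at 0.676 FPKM in M, so that the low signal in 9 and 11 lay on the 3-exon models. Wdr55, on the opposite strand, overlaps the gene by 140 bp and ran at 3.37, 3.32 and 3.36 FPKM in GFP-positive 2, 4 and 7, against 3.13, 9.25 and 5.98 FPKM in GFP-negative 9, 11 and M. The difference no longer passed without GFP-positive 7 (3.07, adjusted p = 0.0594) or without GFP-negative M (3.22, 0.0586).

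Lin28a was lower than Dazl and Dnd1 and rose with less certainty. It had 4.18, 0.710 and 0.988 FPKM in GFP-positive 2, 4 and 7, against 0.0160, 0.0834 and 0.167 FPKM in GFP-negative 9, 11 and M. The groups did not overlap, and GFP-positive 2 was 4.23-fold above the next library. Nearly all of it lay on the 4-exon transcript of 3505 nt (chromosome 4, 133730641 to 133746152, minus strand), with 4.49, 0.625 and 0.958 FPKM as deposited in GFP-positive 2, 4 and 7. The log2 difference was 1.80 (SE 0.51, adjusted p = 0.0416). It was 1.20 without GFP-positive 2 (adjusted p = 0.0468), and the call was lost when any 1 of the other 5 libraries was left out (adjusted p from 0.0504 to 0.116). Scaling and the filter still used all 6 libraries in these fits. Lin28a was thus tested without GFP-positive 2 on a filter mean that included that library. The GFP-negative values rest on few reads. In GFP-negative 9, 11 and M the gene had 600, 2648 and 4394 aligned bases, and the commonest total among sparsely covered single-exon transcripts in 5 of the 6 libraries was 300 bases.

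The NANOS genes had the lowest means of the set over the 6 libraries, although Lin28a was below Nanos3 in each GFP-negative library and in GFP-positive 4. Nanos2, a single exon of 1563 nt (chromosome 7, 18721325 to 18722887, plus strand), had levels of 1.86, 0.286 and 0.306 FPKM in GFP-positive 2, 4 and 7 and was listed at 0 in the 3 GFP-negative libraries. In aligned bases this was 36067, 4779 and 5243 in the GFP-positive and 0 in each of the GFP-negative libraries. Its mean of 0.409 FPKM over the 6 libraries was under the filter. The mean log2 level differed by 1.19 (exact two-sided permutation p = 0.1, the smallest that 3 against 3 libraries allow), and by 0.67 without GFP-positive 2. No fold change is given against libraries listed at 0. Gm45058, a gene on the opposite strand within Nanos2, was at 0.119 FPKM in GFP-positive 2 and 0.0386 FPKM in GFP-negative M and listed at 0 in the other 4 libraries.

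Nanos3 overlapped between the groups. Its level was 2.18, 0.846 and 0.556 FPKM in GFP-positive 2, 4 and 7, against 0.259, 0.152 and 0.616 FPKM in GFP-negative 9, 11 and M, so GFP-negative M was above GFP-positive 7. The log2 difference was 0.93 (SE 0.42, adjusted p = 0.139), with a 95% interval from -0.03 to 1.89. It was 0.38 with an equal sum of FPKM, 0.34 with library weights and 0.14 with the length trend removed. The 2 transcripts with a start at 84903181 (730 and 692 nt, chromosome 8, minus strand) carried the GFP-positive signal. The third, of 434 nt, starts upstream of them, at 84911846. It was listed at 0 in the 3 GFP-positive libraries and at 0.148, 0.0394 and 0.0392 FPKM as deposited in GFP-negative 9, 11 and M.

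**Figure D4:**
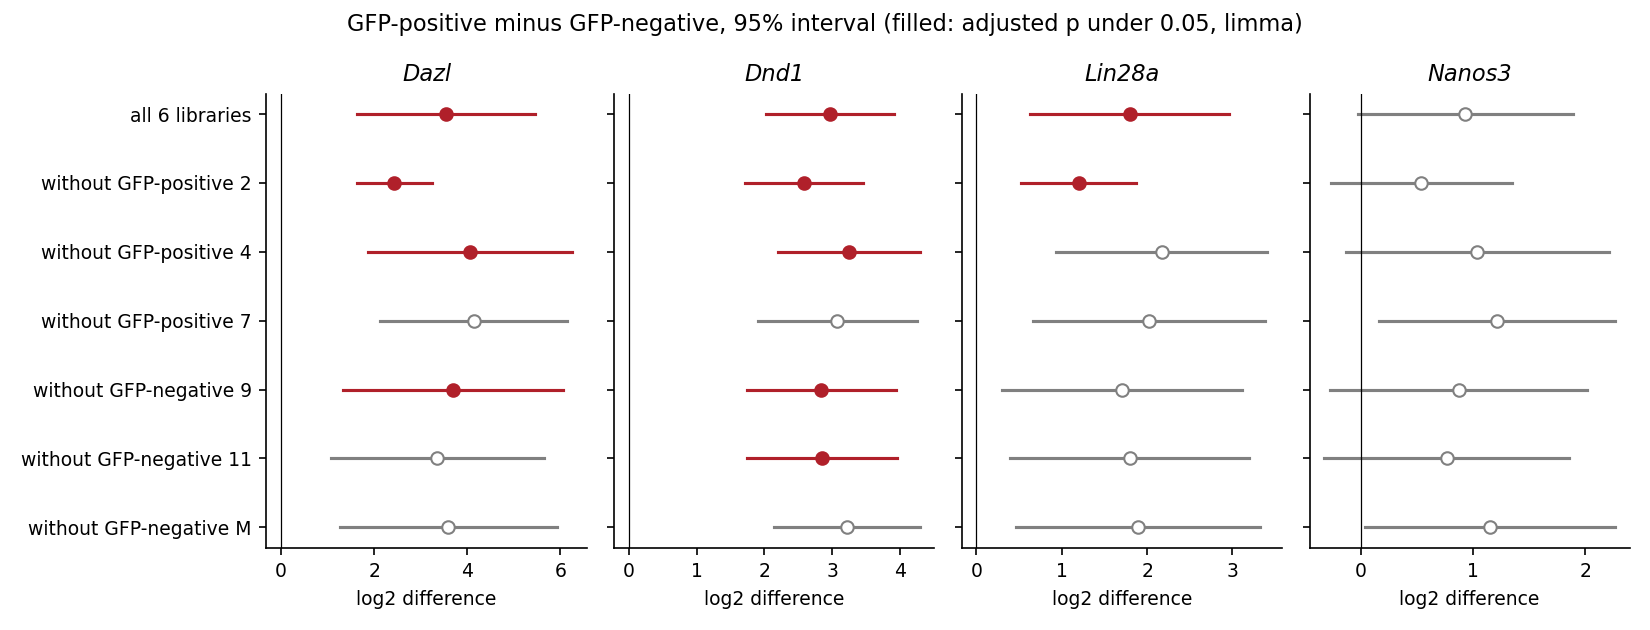
Log2 difference, GFP-positive minus GFP-negative (horizontal axis), with its 95% interval from limma, for all 6 libraries and with each library left out (rows); filled red points have an adjusted p under 0.05. The differences stay above 0 in each row, from 2.44 to 4.14 for Dazl, 2.58 to 3.24 for Dnd1, 1.20 to 2.17 for Lin28a and 0.54 to 1.21 for Nanos3.

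GFP-positive 2 was the highest library for 5 of the 5 genes. Among all features tested it was the highest of the GFP-positive libraries in 35.9%. Its excess over the next GFP-positive library was 10.4-fold for Dazl, 6.09-fold for Nanos2, 4.23-fold for Lin28a, 2.58-fold for Nanos3 and 2.06-fold for Dnd1, all by named transcripts. With the unnamed model added, the excess of GFP-positive 2 was 3.94-fold for Dazl, and it was 1.13-fold for that model alone. The order of the genes by level in that library was Dazl, Dnd1, Lin28a, Nanos3 and Nanos2. By named transcripts Dazl and Dnd1 were close in GFP-positive 4 (4.78 and 4.06 FPKM) and in GFP-positive 7 (4.28 and 5.27 FPKM). With the unnamed model added, Dazl was above Dnd1 in both, at 7.96 and 16.05 FPKM. Among the GFP-negative libraries Dnd1, Lin28a and Nanos3 were highest in M, and the named transcripts of Dazl in 9. With the unnamed model added, Dazl was at 0.667 FPKM in GFP-negative 9 and 0.673 FPKM in GFP-negative M.

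Of 6 relatives of the 5 genes, 2 were tested and 1 rose, beside 11.3% called higher over all features. Boll, the DAZ family gene of meiotic cells, rose to 1.39, 1.55 and 0.952 FPKM in GFP-positive 2, 4 and 7, against 0, 0.0963 and 0.0316 FPKM in GFP-negative 9, 11 and M (log2 difference 1.72, SE 0.29, adjusted p = 0.0137). Nanos1 was under the filter, with a mean of 0.634 FPKM in GFP-positive and 0.135 FPKM in GFP-negative libraries and no overlap. Lin28b, the paralogue of Lin28a, overlapped between the groups at 0.335 ± 0.227 FPKM in GFP-positive and 0.124 ± 0.0622 FPKM in GFP-negative libraries (SD, n = 3 each). Rbm47, a relative of Dnd1, lay the other way without overlap and did not pass, at 3.22 ± 2.22 FPKM in GFP-positive and 7.19 ± 0.710 FPKM in GFP-negative libraries (log2 difference -1.29, adjusted p = 0.105). These 3 were chosen after their values were seen. Boll did not pass without GFP-positive 7 and did not pass without GFP-negative M.

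Transcripts of the proteins through which NANOS, DND1 and DAZL act were present in both groups. Of 24 listed partners, from the Pumilio proteins to the CCR4-NOT deadenylase and the decapping enzymes, all 24 were tested, 0 rose and 3 fell in limma (1 and 7 at an unadjusted p under 0.05), against 11.3% higher and 9.2% lower over all features. The median log2 difference was -0.26, against -0.01 over all features. Pabpc1, which encodes the main poly(A)-binding protein, fell to 70.0, 55.6 and 54.6 FPKM in GFP-positive 2, 4 and 7, against 116.2, 218.2 and 158.7 FPKM in GFP-negative 9, 11 and M (log2 difference -1.41, adjusted p = 0.0219). Cnot3, a CCR4-NOT subunit gene, differed by -1.78 (adjusted p = 0.0348) and Tnrc6a, an Argonaute partner gene, by -0.80 (adjusted p = 0.0473). None of the 3 falls passed when GFP-positive 4, GFP-positive 7, GFP-negative 11 or GFP-negative M was left out. Scaled to an equal sum of FPKM, where the median of all features is -0.89, 15 of the partners were called lower and 0 higher. Of the partners 2 were called higher and 9 lower with library weights, 2 and 7 with unnamed isoforms added, and 2 and 5 without GFP-negative 9.

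The LIN28 and let-7 list gave 1 rise and 1 fall among 15 tested genes, with a median of -0.46, beside 11.3% higher and 9.2% lower over all features. With an equal sum of FPKM the counts were 0 up and 10 down. The falls numbered 7 with library weights, 4 with unnamed isoforms added and 5 without GFP-negative 9, and neither a rise nor a fall passed without GFP-positive 7 or without GFP-negative M. Trim71, a let-7 target gene that encodes an RNA-binding ubiquitin ligase, rose to 4.77, 1.28 and 1.22 FPKM in GFP-positive 2, 4 and 7, against 0.128, 0.351 and 0.418 FPKM in GFP-negative 9, 11 and M (log2 difference 1.68, SE 0.47, adjusted p = 0.0406). That call was lost when any 1 library was left out. Drosha, which encodes the nuclear microRNA-processing enzyme, fell to 1.46, 1.74 and 1.59 FPKM in GFP-positive 2, 4 and 7, against 4.204, 14.5 and 10.5 FPKM in GFP-negative 9, 11 and M (log2 difference -2.14, SE 0.42, adjusted p = 0.0179). It passed neither without GFP-positive 7 nor without GFP-negative M. Hmga2, a let-7 target gene chosen after its values were seen, averaged 0.979 ± 0.393 FPKM in GFP-positive and 5.24 ± 4.89 FPKM in GFP-negative libraries and did not pass (log2 difference -1.66, adjusted p = 0.0641). Mature let-7 was not analysed here.

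Genes listed as bound by or downstream of DAZL, NANOS2 or DND1 were higher in part. Of 16, 11 were tested, 6 rose and 0 fell in limma (also 6 and 0 at an unadjusted p under 0.05), with a median of 2.01. Over all features tested 11.3% were called higher and 9.2% lower. Ddx4, Sohlh2 and Sycp3 are also counted in lists of germ cell genes below. The filter favoured genes that are high in the GFP-positive libraries, where 11 of the 16 had a mean of at least 0.5 FPKM, against 4 in the GFP-negative libraries. Tex19.1, a germline gene that limits retrotransposons, rose to 19.2, 8.005 and 11.6 FPKM in GFP-positive 2, 4 and 7, against 0.474, 0.390 and 0.441 FPKM in GFP-negative 9, 11 and M (log2 difference 3.76, SE 0.34, adjusted p = 0.00402). Sohlh2, a transcription factor gene of differentiating spermatogonia, differed by 3.14 (adjusted p = 0.00682), Taf7l, a germline variant of a general transcription factor gene, by 3.84 (adjusted p = 0.0111), and Ddx4, the germ cell RNA helicase gene, by 2.60 (adjusted p = 0.0162). Stra8, a gene of meiotic entry, had its lowest GFP-positive value in GFP-positive 2. Stra8 levels were 0.0814, 3.61 and 11.0 FPKM in GFP-positive 2, 4 and 7, against 0, 0.0666 and 1.001 FPKM in GFP-negative 9, 11 and M. The gene did not pass (log2 difference 2.00, adjusted p = 0.170 in limma) and was chosen after its values were seen. Its relation to Nanos2 was not tested. With GFP-positive 7 left out 1 of the list rose, and likewise with GFP-negative M left out.

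Other germline RNA-binding protein genes split. Of 25 listed, 17 were tested, and 6 of these rose and 1 fell (median 0.76), beside 11.3% higher and 9.2% lower over all features. Here 20 of the 25 reached a mean of 0.5 FPKM in the GFP-positive group and 9 in the GFP-negative group, so the filter again favoured genes high in the GFP-positive group. Mael, a gene of the piRNA pathway, rose to 49.3, 9.18 and 16.3 FPKM in GFP-positive 2, 4 and 7, against 0.389, 0.158 and 0.527 FPKM in GFP-negative 9, 11 and M (log2 difference 4.57, SE 0.56, adjusted p = 0.0102). Tdrd5, which encodes a protein of germ cell granules, rose by 1.88 (adjusted p = 0.0308), and Ddx4 and Boll are in this list too. Msi1, a Musashi gene that is also expressed in somatic stem cells, was the 1 that fell (-1.21, adjusted p = 0.0441; chosen after its value was seen). With an equal sum of FPKM the counts were 2 up and 5 down. In limma 0 rose and 0 fell without GFP-positive 7 (7 and 1 at an unadjusted p under 0.05), and likewise without GFP-negative M (6 and 2).

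Markers of germ cells moved with these genes in part, and their part in the result was not tested. Of 15 defining markers 6 were tested, and Ddx4, Sycp3 and Gfra1 rose while 0 fell in limma (3 and 0 at an unadjusted p under 0.05). The shares over all features tested were 11.3% higher and 9.2% lower. A mean of 0.5 FPKM or more was reached by 7 of the list in the GFP-positive group and by 1 in the GFP-negative group. The rises numbered 0 without GFP-positive 7, without GFP-negative M and with no filter, and 1 without GFP-negative 9, without GFP-negative 11, at a pseudocount of 1 and with the length trend removed. Gfra1 was lost in 10 of 18 alternatives and Sycp3 in 7. Ddx4 was at 6.02, 1.11 and 2.32 FPKM in GFP-positive 2, 4 and 7, against 0, 0 and 0.0373 FPKM in GFP-negative 9, 11 and M. The summed level of the list was 37.1 to 105.1 FPKM in GFP-positive and 92.1 to 99.1 FPKM in GFP-negative libraries, most of it Uchl1 (18.6 to 98.1 FPKM over the 6 libraries, chosen after its values were seen). The spermatid genes Prm1, Prm2 and Tnp2 were listed at 0 in the 6 libraries. Of 21 genes of primordial germ cells and spermatogonia 12 were tested, and 7 of these rose and 2 fell (median 1.62). The shares over all features, 11.3% higher and 9.2% lower, stand beside this count too. Of the 21, 15 reached that mean in the GFP-positive group and 4 in the GFP-negative group, so most tested genes passed the filter through the group in which they are high. Without GFP-positive 7 there was 1 rise, and likewise without GFP-negative M. Tex101, a germ cell surface protein gene (4.88, adjusted p = 0.00344), and Sohlh1, a transcription factor gene of early spermatogonia (2.45, adjusted p = 0.0134), were among the rises beside Sohlh2 and Ddx4, and the falls were Etv5 (-1.33) and Foxo1 (-0.94), which were chosen after their values were seen. Zbtb16, a marker of undifferentiated spermatogonia, overlapped between the groups and was under the filter, at 0.636 ± 0.536 FPKM in GFP-positive and 0.175 ± 0.154 FPKM in GFP-negative libraries (chosen after its values were seen). Markers of Leydig, peritubular myoid, macrophage, endothelial and fibroblast cells were tested in 5, 6, 2, 1 and 4 cases. Of these 1 passed, the macrophage gene Lyz2, which fell (-1.86, adjusted p = 0.0186), beside 11.3% higher and 9.2% lower over all features. Lyz2 did not pass in 5 of the 18 alternatives. At an unadjusted p under 0.05 in limma 1, 2, 1, 1 and 2 fell in the same order, and 0 rose in each list. Fibroblast markers summed to 37.8 to 57.3 FPKM in GFP-positive and 47.1 to 1127 FPKM in GFP-negative libraries, highest in GFP-negative 11. Most of the sum there was Col1a1 and Col1a2 (679.9 and 437.3 FPKM). Dcn, chosen after its values were seen, lay the other way, averaging 7.76 FPKM in GFP-positive and 3.45 FPKM in GFP-negative libraries. Peritubular myoid markers summed to 130.7 to 1870 FPKM in GFP-positive and 325.9 to 864.2 FPKM in GFP-negative libraries. Leydig markers summed to 36.2 to 86.4 FPKM in GFP-positive and 71.7 to 88.7 FPKM in GFP-negative libraries. Among them Cyp11a1 averaged 37.3 FPKM in GFP-positive and 37.4 FPKM in GFP-negative libraries, and Star 15.1 and 30.9 FPKM.

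**Figure D5:**
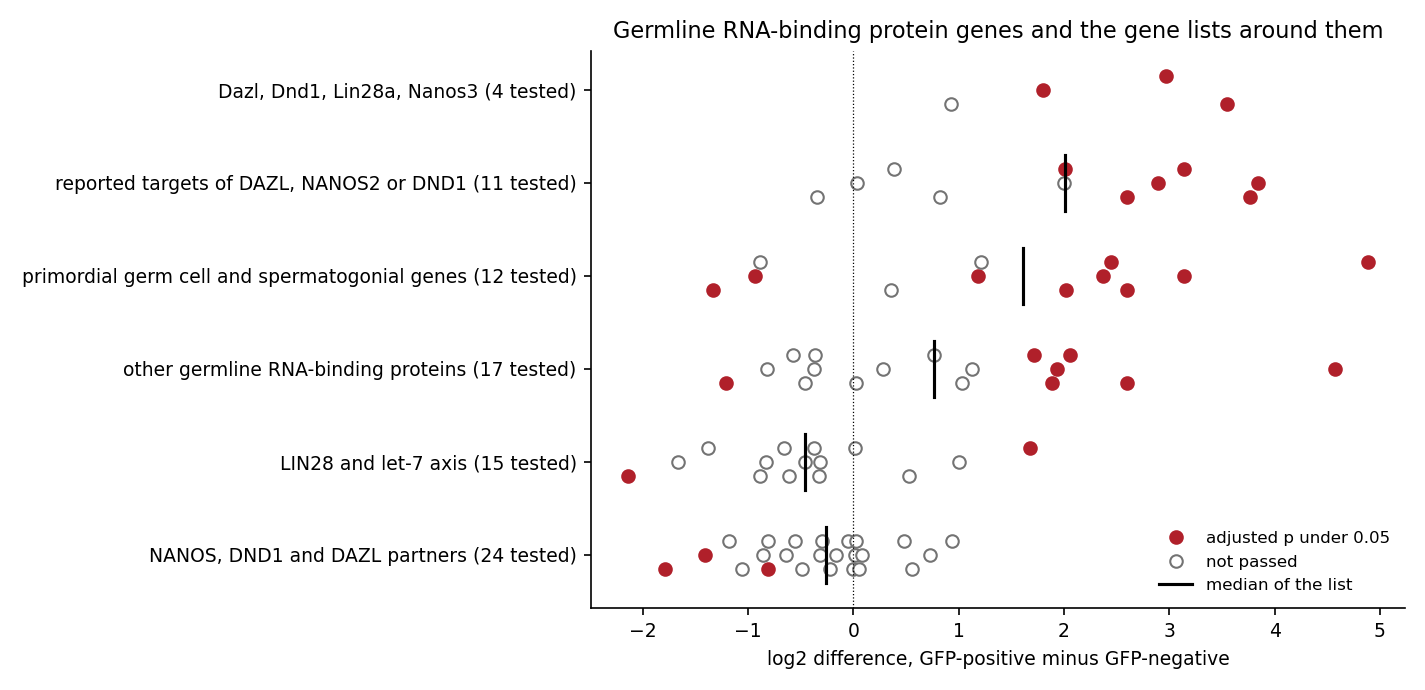
Log2 difference, GFP-positive minus GFP-negative (horizontal axis), for the 4 tested genes of the set and for the tested genes of 5 lists around them (rows); red points have an adjusted p under 0.05, open points do not, and black bars are list medians. The germline lists have medians of 2.01, 1.62 and 0.76, and the LIN28 and partner lists -0.46 and -0.26; the filter on low values favoured genes high in the GFP-positive libraries in the germline lists, so the medians are not compared.

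Among 11938 other named genes, the profiles most like that of each gene were found by the root mean square difference of log2 levels over the 6 libraries, each centred on its own mean. The profiles, also those of the pairs below, are of named transcripts and leave out the unnamed Dazl model. For Dazl the nearest were Asz1, Taf7l, Tm9sf5, Nxf2 and Ctag2l1, at 0.60 to 0.66 on the log2 scale. Asz1, a gene of the piRNA pathway, had levels of 18.6, 2.33 and 6.39 FPKM in GFP-positive 2, 4 and 7, against 0.116, 0.0693 and 0.222 FPKM in GFP-negative 9, 11 and M. For Dnd1 the nearest were Fthl17b, Fthl17e, Ctag2l1, Mageb4 and Fthl17c, at 0.23 to 0.26, and copies of the Fthl17 and Mage families are alike in sequence and may share reads. For Lin28a they were Trim71, Pdha2, Sult4a1, Sycp3 and Large2, at 0.16 to 0.19. For Nanos3, which did not pass, they were Slc16a4, Sfr1, Cpsf4l, Epcam and Kcnj4, at 0.15 to 0.20. Within the set the nearest pair was Lin28a and Nanos3 (0.55) and the farthest Dazl and Nanos3 (1.51). These are likenesses over 6 libraries that fall into 2 groups, given as a description.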

How the data were processed

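For each of the 6 libraries the authors deposited 1 table, all listing 153503 transcripts, with the authors' FPKM and mean per-base coverage signal, per the file headers. Per the labels' protocols, TRIzol-extracted, DNase-treated RNA was depleted of ribosomal RNA before stranded (dUTP) library preparation. Trimmomatic, HISAT2, StringTie and the build mm39 appear in the submitters' processing notes; versions and the strand setting of the assembly are not given in the sources used here. Coverage divided by FPKM was constant within a library and gave its aligned bases, and coverage times length those of a transcript. Counting intervals are not given, since the tables were used without read counts.

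FPKM was summed over transcripts per gene name, and the 12776 unnamed transcripts per assembled locus. Scaling between libraries used median ratios, computed on 11695 genes. Features with a longest transcript of at least 200 nt and a mean scaled FPKM of at least 0.5 (18908) entered limma 3.58.1 (R 4.3.3, eBayes with trend) as log2(scaled FPKM + 0.5). Differences are GFP-positive minus GFP-negative, and p-values were adjusted by Benjamini-Hochberg over all features, with a threshold of 0.05. Nanos2 was compared by an exact permutation test. Fold changes on this scale understate the change of low genes. The fit was also run on simulated data with independent noise for each gene and library. Those data hold no shift shared by a whole library, so they do not show how the fit behaves under one. Python 3.11.15, pandas 2.3.3 and matplotlib 3.10.9 were used. Sequences are from RefSeq.

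The genes and lists were chosen with earlier results of these data known. Named are the 5 genes, up to 4 called members of each list by adjusted p (or the 2 most abundant), and the 5 nearest profiles; other names were chosen after their values were seen. The 18 alternatives were planned; library weights were estimated gene by gene.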

Additional observations from a re-analysis of the deposited data

How the results depend on the processing

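Dnd1 passed in 16 of 18 alternatives, Dazl in 14 and Lin28a in 7, Nanos3 (unadjusted p = 0.0562 in limma with all libraries) in 0 of 17, and each kept its direction in all that gave a value. Nanos3 was lowest with the length trend removed (0.14), library weights (0.34) and an equal sum (0.38). With no filter the differences of Dazl (3.55) and Lin28a (1.80) did not pass. Lin28a also missed at a pseudocount of 1 (1.26), with unscaled FPKM (1.80), with an equal sum of FPKM (1.35), after quantile normalization (1.66) and with the length trend removed (1.96). Nanos2 moved to 2.75 at a pseudocount of 0.1; no value was computed for it with the filter at 1 FPKM, quantile normalization, no mean-variance trend, library weights or the length trend removed. Leaving out 1 library gave 2.44 to 4.14 for Dazl, 2.58 to 3.24 for Dnd1, 1.20 to 2.17 for Lin28a, 0.54 to 1.21 for Nanos3 and 0.67 to 1.46 for Nanos2. The 3872 features called became 1048 with no filter, 8121 with an equal sum of FPKM, 9590 with library weights, 1467 with the length trend removed and 28 to 5805 with 1 library left out, lowest without GFP-positive 7 (28) and GFP-negative M (33). Of the calls 55.1% were higher, against 6.91% scaled to an equal sum and 42.7% with the length trend removed. The 24 calls in the lists around the genes became 8, 46, 42, 14 and 2 to 27 in the same order, and 38 with unnamed isoforms added. The cause of these changes was not tested. No paired analysis was possible because the groups share no replicate number. Few aligned bases limit Nanos2 and the GFP-negative values of Lin28a and Nanos3. The same limit holds for Dazl in GFP-negative 11 (2746 bases) and for Dnd1 in GFP-negative 9 and 11 (4641 and 3811 bases).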
